A study of Arabidopsis thaliana with 18 samples.

Results

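The genes described here flank RPL24B (AT3G53020) on chromosome 3 of Arabidopsis thaliana, the locus that is deleted in the rpl24b mutant. They were chosen by position, as every probe set whose only known locus lies between AT3G52300 and AT3G53600 in locus order. The 4 ribosomal protein (r-protein) genes of that stretch were left out. This gave 63 probe sets for 62 loci, out of 22746 probe sets on the array, with 30 probe sets before RPL24B and 33 after it. For 4 of the 63 the locus was known only through the study's own list of changed genes, so their inclusion depended on change in these data. The stretch has 136 protein-coding loci in RefSeq besides the 4 r-protein genes, so 62 of them were placed and the rest were not analysed here.

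RNA was measured in wild-type and rpl24b seedlings on Affymetrix ATH1 arrays, in which each probe set reports the signal of a transcript on the log2 scale. Total RNA (TC) was taken beside a polysomal fraction (PL), which holds mRNAs loaded with several ribosomes, and a nonpolysomal fraction (NP), which holds free and monosomal mRNA. Each of the 6 groups had 3 arrays, from 3 plant samples per genotype. The translation state (TL) of a transcript, its ribosome loading, is the PL signal minus the NP signal of the same plants, so TL is a log2 ratio.

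Both genotypes were grown for 10 to 12 days on agar with Murashige and Skoog salts and 1% sucrose at 22 °C, in 16 h of light and 8 h of dark, and aerial tissue was taken 6 h into the light. The mutant carried the stv1-1 allele in the Wassilewskija (Ws) ecotype. Its deletion covers RPL24B and several neighbouring genes, and a transgene that expresses the small MYB protein CAPRICE (CPC) sits at the same locus. No label names the ecotype of wild-type plants. Columbia-0 is given for them in the methods, which also speak of growth beside a corresponding wild type. Strain and genotype therefore cannot be told apart in the values below, and in whole aerial tissue fewer cells of a type cannot be told apart from less RNA per cell.

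RPL24B encodes an L24 protein of the large cytosolic ribosomal subunit, and loss of this gene causes the short fruit valves for which the mutant was named. A deletion removes the transcripts of the genes inside it, and genes next to a break or an inserted transgene can change their transcription because their surroundings have changed. CPC is best known as an inhibitor of trichome fate and a promoter of root hair fate in the epidermis. An mRNA can be present without being loaded with ribosomes, which is why total, polysomal and nonpolysomal RNA are given side by side.

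The arrays of a group correlated with each other at Pearson r of at least 0.982 over all probe sets. Their median signals were 5.34 to 5.41 in TC, 4.9 to 4.95 in PL and 4.65 to 5.07 in NP, where the lowest value, from wild-type replicate 2, stood apart from the other NP arrays. RCA, the Rubisco activase of leaves, had TC signals of 13.89 to 13.99 and EXPA7, an expansin of root hairs, had 3.66 to 4.12. PYK10, a β-glucosidase abundant in roots and hypocotyls, had TC signals of 10.20 to 10.68 in the same arrays, with no difference between genotypes that passed the test (change -0.07, limma, adjusted p = 0.768).

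The deleted gene came first, as the check of the labels. RPL24B had TC signals of 9.98, 10.11 and 10.27 in wild type and of 3.79, 3.63 and 3.44 in rpl24b. The groups lay far apart, and the mutant signal stood at percentile 27.2 of all probe sets where the wild-type signal had stood at 97.5. The change was -6.50 ± 0.12 (SE, limma, adjusted p = 2.88e-08) in TC, -7.41 ± 0.11 in PL and -5.93 ± 0.25 in NP. CPC had TC signals of 3.34, 3.21 and 3.41 in wild type and of 10.86, 10.91 and 10.38 in rpl24b (percentile 98.5 of all probe sets).

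The first question was how far from RPL24B transcripts were lost or gained in total RNA. Next to RPL24B, SRPK4 lost most of its signal, and slightly farther on the same side SK6, near the dimmest of the array in wild type, was bright in the mutant. The nearest placed genes with a bright wild-type signal (not below the median of all probe sets) beyond these were AT3G52960 before RPL24B, which was 1.42-fold higher in the mutant, and AT3G53100 after it, whose change did not pass the test. Farther away, 3 single genes changed at least 2-fold, namely AT3G52390 upward and PAL2 and AT3G53380 downward.

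In TC 5 of 63 members were called, that is, changed at least 2-fold with an adjusted p under 0.05, against 2.91% of all probe sets. Of these 2 were higher in rpl24b (background 1.49%) and 3 lower (background 1.41%). This count cannot be read as a rate, since 4 of the 63 members, SRPK4, SK6, PAL2 and AT3G53380, could be placed only because the study's own list of changed genes pairs their probe sets with loci, and all 4 were among the 5 calls. Of the 59 members that the platform annotation names, 1 was called, or 1.69%, beside 2.41% of the probe sets it names elsewhere on chromosome 3.

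**Figure D1:**
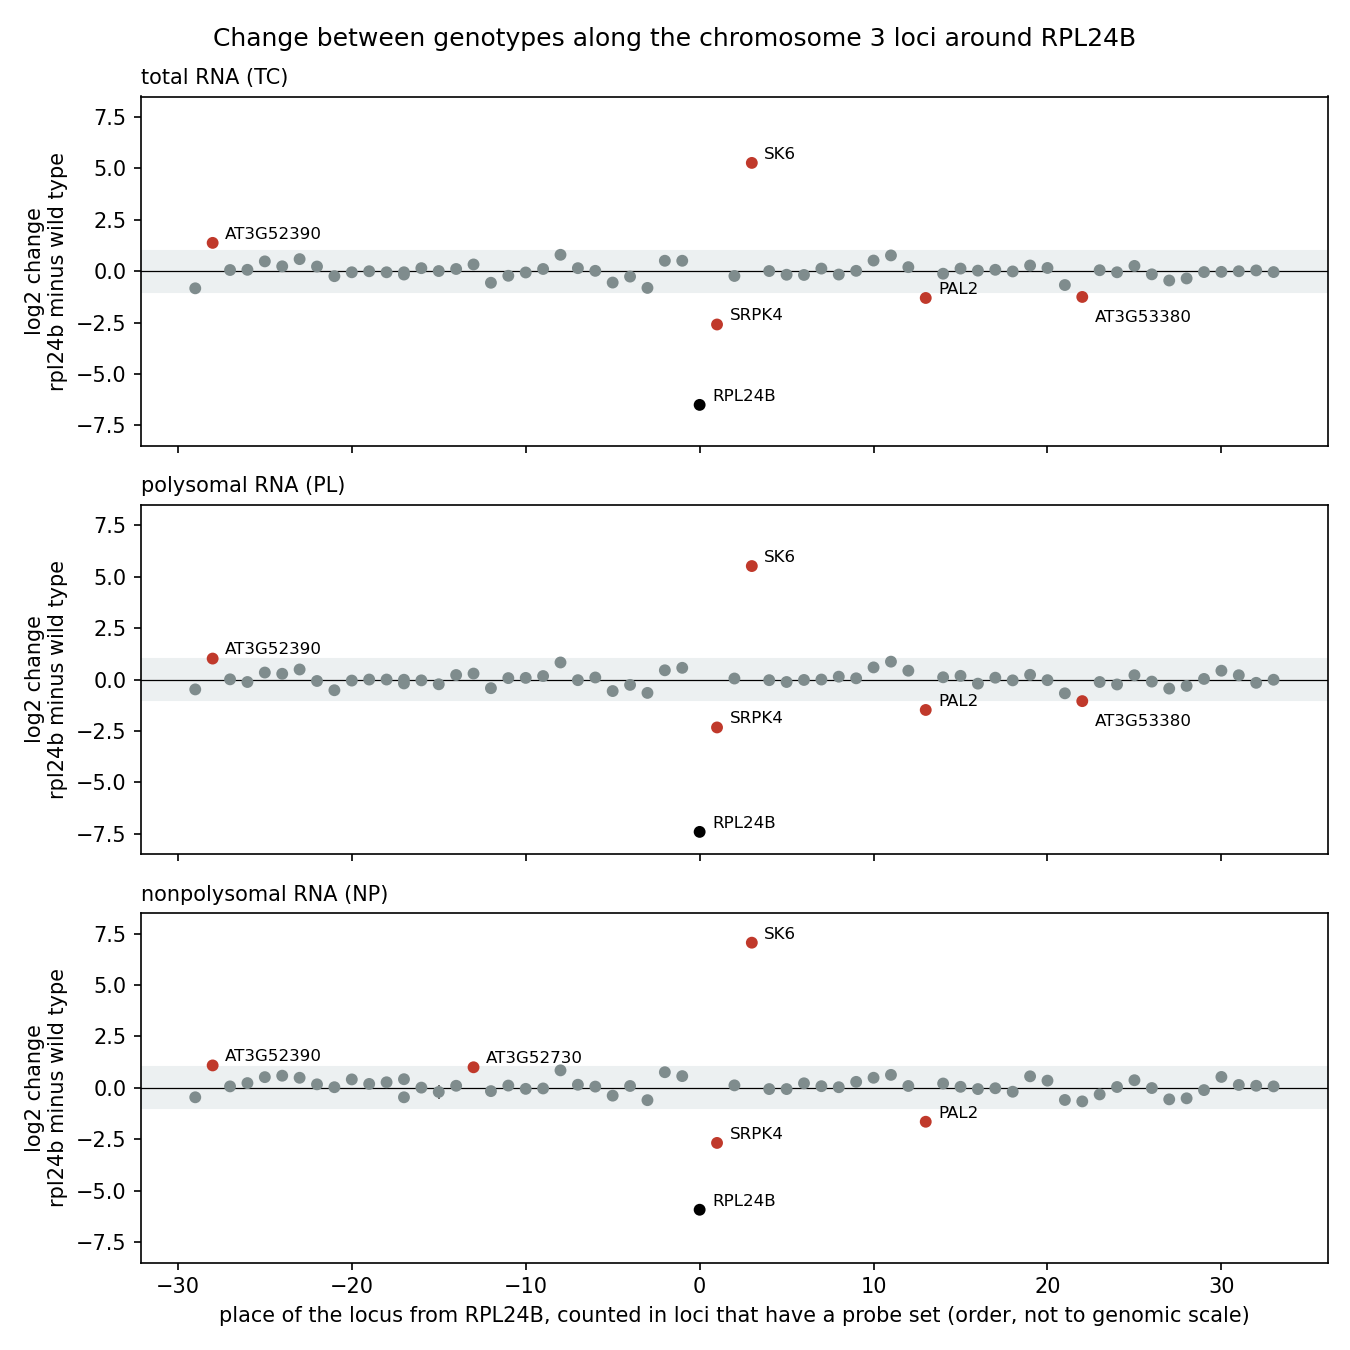
Log2 change in signal (rpl24b minus wild type, error bars give the SE of the limma fit and are mostly smaller than the points) of each member against its place from RPL24B, counted in loci that have a probe set, in TC, PL and NP. Red points passed the test with at least a 2-fold change, black is RPL24B, the grey band marks changes under 2-fold, and outside it the points of SRPK4 and SK6 lie right beside RPL24B, while 57 of 63 members stay inside it in all 3 fractions.

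SRPK4 (AT3G53030), a kinase of the family that phosphorylates SR splicing proteins, is the protein-coding locus next to RPL24B, with 0 others in between. Its TC signals were 7.20, 7.10 and 6.95 in wild type and 4.44, 4.62 and 4.43 in rpl24b. The groups did not overlap, and the transcript fell by 2.59 ± 0.11 (SE, limma, adjusted p = 2.26e-06), a 6.02-fold loss that took it from percentile 74.9 to 39.7 of all probe sets. Of the 28 members whose wild-type TC signal was at least 5.38, the median over probe sets,, SRPK4 alone fell below it in the mutant.

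SRPK4 also fell in both gradient fractions, and whether it was absent from the mutant was not tested. In PL its signals were 6.24, 6.28 and 6.43 in wild type and 4.04, 3.94 and 3.98 in rpl24b (log2 change -2.33 ± 0.10 SE, limma, adjusted p = 4.07e-07). In NP they were 6.72, 6.14 and 6.84 against 4.03, 3.92 and 3.69 (log2 change -2.68 ± 0.20 SE, limma, adjusted p = 2.97e-05). Neither fraction showed an overlap between genotypes.

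SK6 (AT3G53060) encodes an SKP1-like protein, a family whose members link F-box proteins to cullin in ubiquitin ligases. It lies beyond SRPK4, with 2 protein-coding loci in between. Its TC signals were 2.81, 2.35 and 2.50 in wild type, at percentile 3.19 of all probe sets, and 7.71, 8.03 and 7.75 in rpl24b, at percentile 84.7. Every mutant array was thus far above every wild-type array, with a change of 5.27 ± 0.14 (SE, limma, adjusted p = 1.98e-07). Since the wild-type signal was close to the dimmest on the array and no detection call was used, the 38.7-fold ratio of the signals has an uncertain base.

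The gain of SK6 appeared in polysomal as well as in nonpolysomal RNA. The PL signals were 2.08, 1.99 and 2.59 in wild type and 8.00, 8.00 and 7.23 in rpl24b (log2 change 5.52 ± 0.22 SE, limma, adjusted p = 2.13e-07). The NP signals were 2.27, 2.28 and 2.17 in wild type and 9.35, 9.05 and 9.49 in rpl24b (log2 change 7.06 ± 0.16 SE, limma, adjusted p = 8.67e-09). In NP the mutant's SK6 transcript reached percentile 96.3. The gap between both changes belongs to the translation state, which is described further on.

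AT3G52960, a peroxiredoxin of the chloroplast and the nearest placed gene before RPL24B, kept its transcript. Its TC signals were 9.14, 9.24 and 9.23 in wild type and 9.66, 9.61 and 9.87 in rpl24b. The groups did not overlap, and the mutant was higher by 0.51 ± 0.10 (SE, limma, adjusted p = 0.0116). In PL the change was 0.57 (limma, adjusted p = 0.00756) and in NP it was also 0.57 (adjusted p = 0.0691).

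AT3G53100, an esterase of the GDSL family and the first placed gene after SK6 with a wild-type signal above the median, had TC signals of 6.54, 6.46 and 6.64 in wild type and of 6.44, 6.22 and 6.44 in rpl24b. The change of -0.18 did not pass the test (limma, adjusted p = 0.309), and its 95% confidence interval of -0.42 to 0.06 leaves out a loss of the size seen for SRPK4. In PL and NP the changes were -0.02 and 0.22.

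AT3G52960 and AT3G53100 enclose 15 protein-coding loci in RefSeq. RPL24B is 1 of them, 5 are members and 9 have no probe set placed here. Of the 5 members, SRPK4 fell and SK6 rose, whereas the other 3 were dim in both genotypes. These were AT3G53040, a late embryogenesis abundant protein, with a TC change of -0.23 (95% confidence interval -0.62 to 0.17), AT3G53070 with 0.01 and AT3G53080 with -0.17. Their wild-type TC means were 3.12, 3.17 and 4.13, at percentiles 17.3, 18.6 and 36.2, and whether these transcripts were present in wild type was not tested. Within this window, the test called a fall at RPL24B and SRPK4 and none at the 3 dim members, and the 9 loci without a placed probe set were not analysed here.

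**Figure D2:**
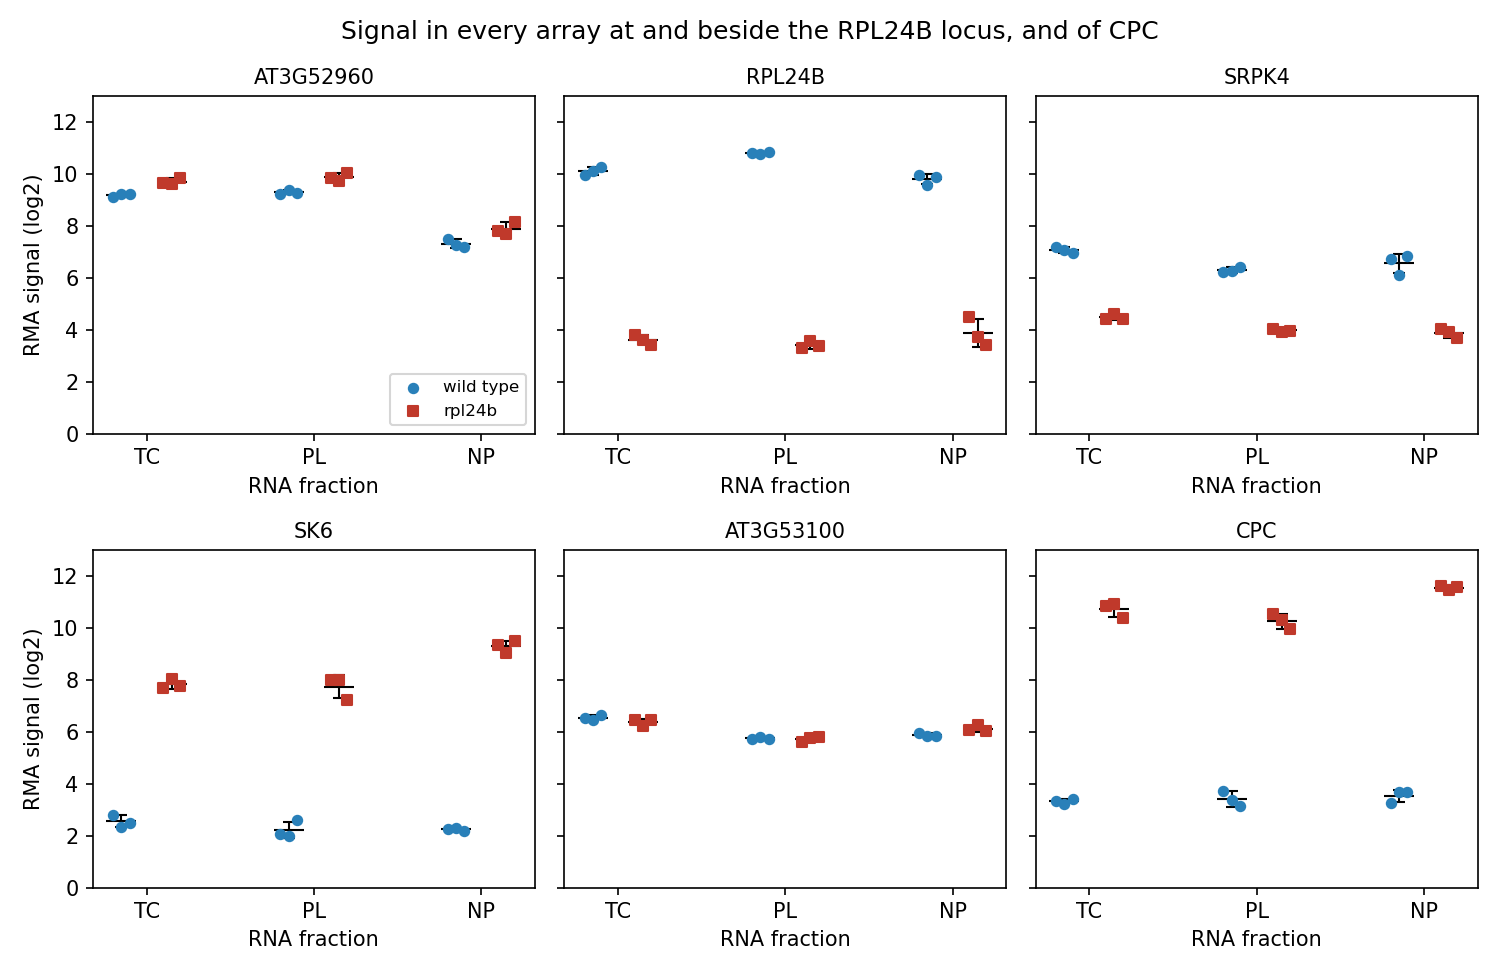
RMA signal (log2) in each array of wild type (blue circles) and rpl24b (red squares) for 4 members, for RPL24B and for CPC, in TC, PL and NP, with black bars for mean ± SD over 3 arrays. RPL24B and SRPK4 are low in every mutant array, SK6 and CPC are high in every mutant array and higher in NP than in PL, and AT3G52960 and AT3G53100 stay within 1 log2 unit of wild type.

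The remaining near neighbours all lie before RPL24B. AT3G52950, a protein with CBS domains, rose by 0.51 ± 0.09 (SE, limma, adjusted p = 0.00791), with signals of 7.26, 7.24 and 7.07 in wild type and 7.71, 7.69 and 7.70 in rpl24b. AT3G52920 fell by 0.81 ± 0.09 (SE, limma, adjusted p = 7.23e-04), from 7.57, 7.63 and 7.52 to 6.82, 6.70 and 6.79. AT3G52870, a calmodulin-binding protein of the IQ-motif family, fell by 0.55 ± 0.13 (SE, limma, adjusted p = 0.0227), a pass that was lost without any 1 of the rpl24b replicates (adjusted p = 0.0516 to 0.0629). The signals of these 3 genes did not overlap between genotypes. AT3G52900 and AT3G52860 had changes of -0.26 and 0.02 that did not pass the test.

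Over the 6 nearest placed loci on each side, 2 of 12 were called, against 2.91% of all probe sets, and 6 of 12 passed the test with no fold minimum, against 16.3%. Both called loci, SRPK4 and SK6, were placed only through the study's list of changed genes, so neither count is a rate. Of the 12, 7 had a wild-type signal at or above the median and 4 were dim in both genotypes. Beyond these, 4 members are given as a description, since their small change was the reason for choosing them. On each side they were the 2 with the smallest TC change among the bright members of the next 10 placed loci. They were AT3G52760 with -0.06, FTSZ2-2, a plastid division protein, with -0.22, CYP71B5, a cytochrome P450, with 0.13 and AT3G53190, a pectin lyase-like protein, with 0.52, which passed the test (limma, adjusted p = 0.022) but not without wild-type replicate 1, wild-type replicate 3 or rpl24b replicate 3 (adjusted p = 0.0542 to 0.0733).

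Away from RPL24B, AT3G52390, a TatD-related DNase, was the called gene that the platform annotation names. Its TC signals were 4.95, 4.81 and 4.71 in wild type and 6.12, 5.95 and 6.55 in rpl24b. The transcript rose by 1.38 ± 0.15 (SE, limma, adjusted p = 7.14e-04) and moved from below the median over probe sets to above it. It rose by 1.02 ± 0.19 in PL (limma, adjusted p = 0.00517) and by 1.09 ± 0.21 in NP (limma, adjusted p = 0.0098), and in neither fraction did the groups overlap. Both values were close to a 2-fold change and dropped below it with each array centred on its median (0.98 and 0.94) or after quantile normalization (0.99 and 0.96). Without rpl24b replicate 3 they were 0.80 and 0.88, and without wild-type replicate 2 the PL value was 0.94.

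PAL2 (AT3G53260) encodes a phenylalanine ammonia-lyase, the entry enzyme of the phenylpropanoid pathway to lignin and flavonoids. Its TC signals were 10.16, 9.85 and 9.85 in wild type compared with 8.77, 8.80 and 8.38 in rpl24b. The transcript fell 2.46-fold (limma, adjusted p = 6.79e-04), with a 95% confidence interval of the log2 change from -1.63 to -0.98. In PL it fell by 1.48 ± 0.10 (limma, adjusted p = 7.19e-06), from 8.20, 8.08 and 8.22 to 6.70, 6.67 and 6.70. In NP it fell by 1.65 ± 0.14 (limma, adjusted p = 8.22e-05), from 9.20, 9.12 and 9.15 to 7.55, 7.62 and 7.36. No fraction had overlapping groups.

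AT3G53380, a lectin receptor-like kinase, had TC signals of 4.91, 5.16 and 5.03 in wild type and 3.99, 3.77 and 3.60 in rpl24b, below the median over probe sets in both. It fell by 1.25 ± 0.12 (SE, limma, adjusted p = 3.90e-04) in TC and by 1.05 ± 0.14 (limma, adjusted p = 9.05e-04) in PL. The PL change was under 2-fold without wild-type replicate 3 (-0.98) or without rpl24b replicate 1 (-0.92). In NP the change of -0.66 did not pass the test (limma, adjusted p = 0.0902).

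With no fold minimum, 18 of 63 members passed the test in TC, or 28.6%, against 16.3% of all probe sets. Among members named by the platform annotation 14 of 59 passed, or 23.7%, beside 15.1% of the probe sets it names elsewhere on chromosome 3. Of the 18, 10 were higher in rpl24b (background 8.4%) and 8 lower (background 7.91%). The members that rose by less than 2-fold included AT3G52800, a zinc finger protein of the A20/AN1 stress-associated family (0.80), AT3G53220, of the thioredoxin superfamily (0.77), AT3G52500, an aspartyl protease (0.59), and AT3G52470 (0.48). Those that fell by less than 2-fold included AT3G52360 (-0.83), AT3G53370 (-0.67) and AT3G53470 (-0.45). They were spread over both sides of RPL24B, with 10 of 30 members passing before it and 8 of 33 after it.

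Most of the stretch stayed close to wild type. The 58 members that were not called in TC had changes between -0.83 and 0.80. The median change of the 63 members was 0.01, against 0.03 over all probe sets, and the median size of the change was 0.16 in both. The upper quartile of that size was 0.49 for members and 0.32 for all probe sets. No overlap between genotypes was seen for 26 of 63 members, against 34.2% of all probe sets. Among members named by the platform annotation it was 22 of 59, beside 31.7% of all probe sets it names. In TC 32 of the 63 members were dim in both genotypes, among them PUB22, a U-box ubiquitin ligase (wild-type mean 3.98), SAUR57, a small auxin-induced protein (3.02), PAP20, a purple acid phosphatase (2.90), and the glycosyltransferases UGT73D1 (2.80) and UGT73C7 (3.11), none of which passed the test in TC.

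The second question was whether the polysomal and nonpolysomal fractions showed the same changes. In PL 5 of 63 members were called (background 2.88%), 2 higher (background 1.71%) and 3 lower (background 1.17%), and they were the genes called in TC. In NP also 5 were called (background 3.47%), 3 higher (background 2.11%) and 2 lower (background 1.36%), with AT3G52730 in place of AT3G53380. Genotypes did not overlap for 31 of 63 members in PL, against 34.4% of all probe sets, and for 23 of 63 in NP, against 27.7%. Among members named by the platform annotation they did not overlap for 27 of 59 in PL and 19 of 59 in NP. The shares of all probe sets it names were 32.3% and 25.9%. Of the members named by the platform annotation, 1 of 59 was called in PL and 2 of 59 in NP, beside 2.74% and 3.34% of all probe sets it names.

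AT3G52730, a small subunit of the mitochondrial ubiquinol-cytochrome c reductase, had NP signals of 9.99, 9.96 and 9.76 in wild type and 10.74, 10.67 and 11.30 in rpl24b. It rose by 1.00 ± 0.19 (SE, limma, adjusted p = 0.01) in NP, just 2-fold, and by 0.33 (limma, adjusted p = 0.0447) in TC, where the pass was lost without any 1 sample (adjusted p = 0.0714 to 0.145). In PL the change was 0.29 (adjusted p = 0.0902). With each array centred on its median the NP value was 0.85, without rpl24b replicate 3 it was 0.80 and without wild-type replicate 3 it was 0.93, all under 2-fold. Centring moved the median NP change of all probe sets from 0.08 to -0.08, and without rpl24b replicate 3 the NP count fell to 3 members.

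With no fold minimum, 16 members passed in PL (background 18.7%), 8 higher (background 10.8%) and 8 lower (background 7.87%). In NP 8 passed (background 8.6%), 5 higher (background 5.21%) and 3 lower (background 3.39%). These counts include members placed only through the study's list of changed genes, so they are not rates. Of the 59 members that the platform annotation names, 12 passed in PL, or 20.3%, and 5 in NP, or 8.47%. Among all probe sets it names, 17.2% passed in PL and 7.92% in NP. TC, PL and NP come from the same plants, so these counts are not independent. All 18 members that passed in TC had the same sign in PL and in NP, 15 of them passed in PL too and 7 passed in all 3 fractions. AT3G52800, AT3G52950 and AT3G53470 were the members under 2-fold among these 7, with NP changes of 0.85, 0.76 and -0.56. AT3G52550 passed in PL alone, with a change of -0.52, and 44 members passed in no fraction. The overlaps between fractions were not counted over all probe sets. They include members placed only through the study's list, so they cannot be read as particular to this stretch.

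The third question was whether the mutant loaded the transcripts of this stretch with ribosomes differently. No TL change passed the test for 62 of the 63 members, and whether their TL was equal in both genotypes was not tested. SK6, the transcript gained in the mutant, was the member whose TL was called, a call lost with the replicate number as a block. Genotypes did not overlap in TL for 9 of the 59 members that the platform annotation names, beside 17.1% of all probe sets it names. In wild type the members covered TL values from -1.68 (AT3G52360) to 1.98 (AT3G52960), and in rpl24b the same genes had -1.71 and 1.97. Over the 63 members, which share arrays and normalization, the mutant's TL followed that of wild type with Pearson r of 0.89, or 0.93 without SK6, beside 0.86 over all probe sets.

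**Figure D3:**
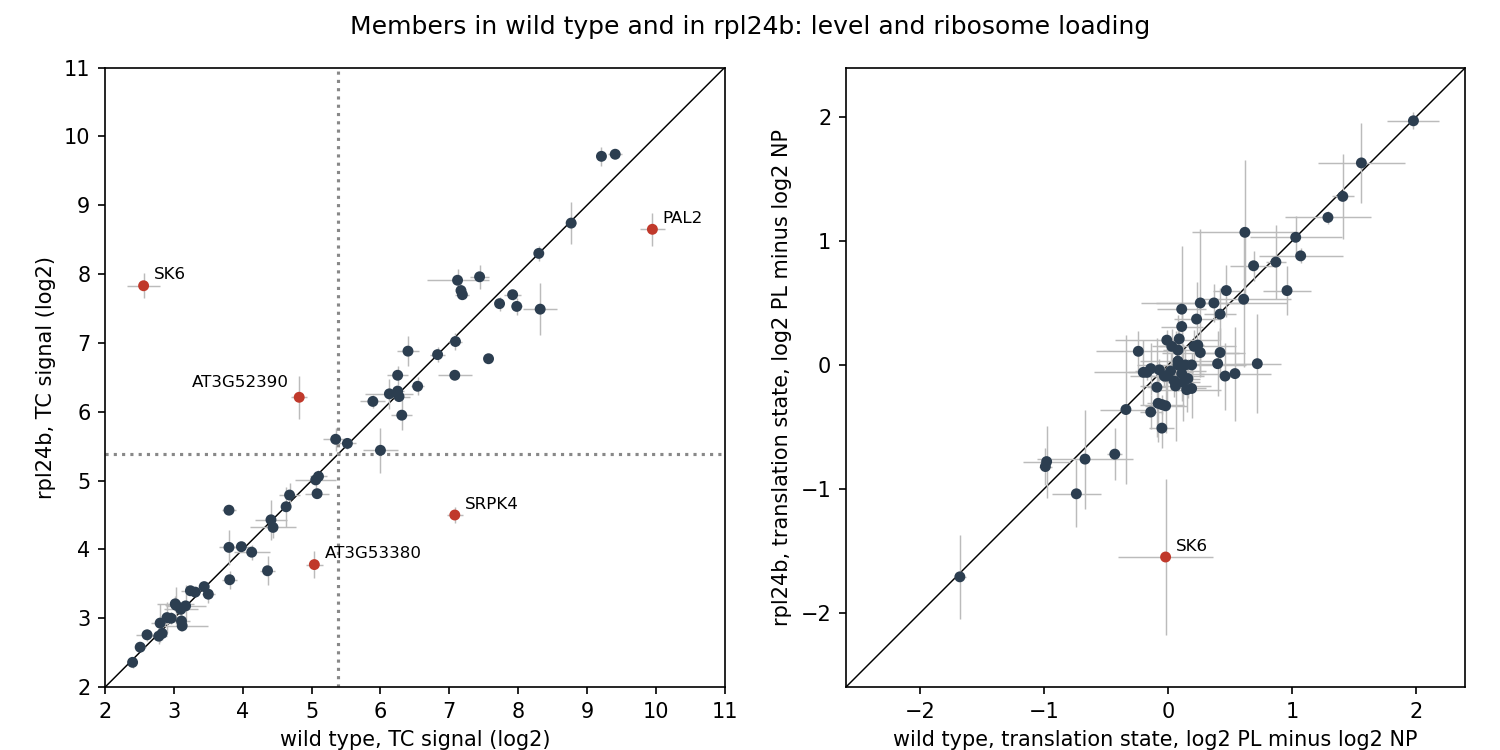
Mean of each member in rpl24b (y axis) against wild type (x axis), for TC signal (left, log2) and for TL (right, log2 PL minus log2 NP), with grey bars for ± SD over 3 samples, the line of equality and, on the left, dotted lines at the median signal over probe sets. Most members lie near the line, red points were called, and SRPK4 and SK6 stand on opposite sides of it on the left, while on the right SK6 alone lies far below it.

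SK6 had TL values of -1.35, -1.05 and -2.26 in rpl24b and of -0.18, -0.29 and 0.42 in wild type. The groups did not overlap, and the mutant's TL stood at percentile 1.36 of all probe sets. The change was -1.54 ± 0.29 (SE, limma, adjusted p = 0.0314), and 1 of 63 members was called in TL against 0.607% of all probe sets, or 0.356% in this direction. SK6 was placed only through the study's list of changed genes, so this count is not a rate. Of the 59 members that the platform annotation names, 0 were called in TL, beside 0.636% of all probe sets it names. The wild-type TL of SK6 rested on PL and NP signals near the dimmest on the array, whose difference carries little information about loading. The call was lost with the replicate number as a block (adjusted p = 0.0504, limma), and the count was also 0 without wild-type replicate 1, wild-type replicate 3, rpl24b replicate 1 or rpl24b replicate 3 (changes of -1.18 to -1.64).

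The CPC signal was not divided between the transgene of the mutant and the gene's own copy. CPC likewise had low TL in the mutant, with -1.11, -1.15 and -1.63 in rpl24b and 0.47, -0.30 and -0.54 in wild type. Its change of -1.17 ± 0.25 did not pass the test (SE, limma, adjusted p = 0.0587), but passed with the replicate block (adjusted p = 0.0249, limma), after quantile normalization (-1.37, adjusted p = 0.0264) and without wild-type replicate 2 (-1.26, adjusted p = 0.0329). In wild type this TL, too, came from dim signals. RPL24B itself had TL values of 0.86, 1.20 and 0.98 in wild type and of -1.20, -0.17 and -0.02 in rpl24b, where the mutant's values came from the residual signal of a deleted gene.

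The lowered members showed no TL change that passed the test. SRPK4 had a TL change of 0.35 ± 0.20 (SE, limma, adjusted p = 0.515) and PAL2 of 0.17 ± 0.17 (adjusted p = 0.728), with 95% confidence intervals of -0.09 to 0.79 and of -0.19 to 0.53. For SRPK4 the mutant's TL came from dim PL and NP signals, with means of 3.99 and 3.88, and carries little information about loading. AT3G52390 changed by -0.07 ± 0.16 (adjusted p = 0.888). Of the 63 members 59 changed in TL by less than 0.5 in size, beside 20700 of 22746 probe sets on the array. The median change was -0.07 against -0.06 over all probe sets, which centring of the arrays moved to 0.05. AT3G52730 had the largest TL change among the members not called, -0.71 (limma, adjusted p = 0.179). AT3G52640, a nicastrin-like protein, has 2 probe sets, whose wild-type TC means of 5.06 and 7.73 and TL changes of -0.61 and 0.45 differed.

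Genes elsewhere in the genome that work with CPC or with PAL2 were set beside them. Of 14 genes of epidermal patterning 5 had a probe set named here, and 3 of these, GL2, MYB23 and CPC itself, were named only by the study's list of changed genes. GL2, a homeodomain factor that promotes trichomes, fell in TC by 1.61 ± 0.16 (SE, limma, adjusted p = 3.92e-04). MYB23, a MYB factor of trichomes, fell by 1.83 ± 0.11 (limma, adjusted p = 2.81e-05). The TC mean of GL2 went from 4.85 to 3.24 and that of MYB23 from 4.37 to 2.54, so both genes were dim in both genotypes. In the mutant MYB23 stood at percentile 2.32 of all probe sets. MYC1, a bHLH partner of such MYB factors, fell by 0.62 (limma, adjusted p = 0.0122), and TRY, a paralog of CPC, had a change of -0.41 (adjusted p = 0.0909) in TC and fell by 0.59 in PL and by 0.74 in NP. In this list 3 of 5 were called in TC, against 2.91% of all probe sets, 1 upward and 2 downward, and the median change was -0.62 beside 0.03 over all probe sets. All 3 calls were genes named only through the list of changed genes and 0 of the other 2 were called, so neither the count nor the median is independent evidence.

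Of 16 phenylpropanoid genes 4 had a probe set named here, and PAL2, PAL3 and PAL4 were again named only by the study's list. All 4 were lower in rpl24b in TC, and 3 of 4 were called, against 2.91% of all probe sets. PAL3 went from 6.20 ± 0.06 to 5.02 ± 0.30 (SD, 3 arrays), and PAL4 from 7.11 ± 0.10 to 5.92 ± 0.14. Both paralogs lie outside the stretch around RPL24B and fell by 1.18 ± 0.15 (SE, limma, adjusted p = 0.00123) and 1.20 ± 0.11 (limma, adjusted p = 2.43e-04). HCT, an acyltransferase of lignin synthesis that the platform annotation names, fell by 0.63 (limma, adjusted p = 0.0103). The median change was -1.19, and because the names of 3 of the 4 come from a list chosen for change in these samples, it is not independent evidence of a direction.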

How the data were processed

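Signals had been deposited by the authors as log2 values per probe set, extracted from the arrays with RMA in R/Bioconductor (affy), and the deposited translation states are also on the log2 scale. The labels name MAS5 too, and versions were not given in the sources used here. TL was recomputed as PL minus NP and differed from the deposited values by at most 0.001.

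Probe sets were placed by the platform annotation, an r-protein catalogue and the study's gene list, with loci and neighbours from RefSeq (TAIR10.1). No locus was placed for 8185 probe sets and 548 had several. Each fraction was fitted on all 22746 probe sets with limma 3.58.1 in R 4.3.3 (lmFit, eBayes), 3 arrays against 3, with Benjamini-Hochberg adjustment over all of them. A call needed adjusted p under 0.05 and at least 2-fold. The fit was also run on simulated arrays with independent noise. These had no pairs and no shifts between arrays, so that run does not speak to either. Dim means a mean below the median over probe sets. The number of arrays limits the precision.

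The labels say that replicates were grown at different times with both genotypes side by side, so plants of the same number are pairs. As a check, wild-type and mutant arrays of the same number were compared after subtracting each group's mean, which gave correlations of 0.14 to 0.39 in TC, 0.05 to 0.28 in PL, -0.19 to 0.06 in NP and -0.05 to 0.03 in TL. Arrays of different number gave -0.36 to -0.03 in TC, -0.24 to 0.12 in PL, -0.14 to 0.16 in NP and -0.03 to 0.08 in TL. The ranges lay apart in TC alone. The study's test has no term for pairs, so the block was an alternative, beside centring, quantile normalization, a filter on dim probe sets, eBayes with trend and robust, no fold minimum, the deposited translation states and leaving out each sample.

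Members, lists and tests were chosen with earlier results of these data known. Genes were named by rule: RPL24B, CPC, the 6 nearest members on each side, every called member, and in the pathway lists called genes and the brightest 3. Up to 4 bright members were added from the next 10 loci on each side, equally many per side, with the smallest change on their side. Other members named with single values (PUB22, SAUR57, AT3G52800 and the like) were chosen after their values were seen. No sequence is printed.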

Additional observations from a re-analysis of the deposited data

Results flagged for a closer look

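By the TL test, the change in PL minus the change in NP passed for 2 transcripts, each with dim signals in 1 genotype, so neither value is a measure of ribosome loading in that genotype. For SK6 it was -1.54 ± 0.29 (SE, limma, adjusted p = 0.0314), with wild-type PL and NP signals at percentiles 0.769 and 0.657. It did not pass with the replicate block (limma, adjusted p = 0.0504) or without wild-type replicate 1, wild-type replicate 3, rpl24b replicate 1 or rpl24b replicate 3 (adjusted p = 0.0745 to 0.119). For RPL24B it was -1.48 ± 0.27 (SE, limma, adjusted p = 0.0274), where the mutant's PL and NP signals of 3.42 and 3.89 are the residual of a deleted gene, and it passed without wild-type replicate 2 but not without any 1 of the other samples. The part of the dim signals was not tested.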

How the results depend on the processing

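With the filter on dim probe sets 3 members were called in TC, 3 in PL and 4 in NP, and the epidermal patterning list kept 1 call (CPC), since the filter removes called genes whose mean signal is low. With no fold minimum the counts were 18 in TC, 16 in PL and 8 in NP. Restricted to members that the platform annotation names, an alternative chosen after seeing the data, they were 1 in TC, 1 in PL, 2 in NP and 0 in TL. Centring the arrays gave 3 in NP. Leaving out 1 sample gave 5 to 6 in TC, 4 to 7 in PL, 3 to 6 in NP and 0 to 1 in TL. The phenylpropanoid list gave 3 calls throughout, or 4 with no fold minimum.

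With the replicate number as a block, which the pairing of plants calls for, the counts were 5 in TC, 5 in PL, 5 in NP and 0 in TL. Besides SK6 and CPC in TL, the block changed no call among the named genes.

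Of the values of single named genes under the alternatives, 388 kept direction and call (both thresholds), 22 lost the call, 4 gained it and 9 changed sign, the last all in genes that were never called and lay near 0. When a sample was left out, TC changes ranged from -0.03 to 0.08 for AT3G52860, from -0.12 to 0.01 for AT3G52760, from -0.06 to 0.29 for CYP71B5 and from -0.13 to 0.18 for AT3G53070, which also stood at -0.05 after quantile normalization. Among named genes that passed with less than a 2-fold change in TC, the pass was lost in 12 of these refits, for AT3G52870, AT3G53190 and AT3G52730. The cause was not tested. RPL24B in TL lost its call without any 1 sample other than wild-type replicate 2 (-1.11 to -1.70).

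In TC 32 of 63 members were dim in both genotypes, where a loss is harder to see although AT3G53380 was called there, and 9 loci of the window around RPL24B were not analysed here. Ecotype and mutant locus cannot be told apart.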
